A study of Mus musculus with 8 samples.

Results

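Smooth muscle cells of the ascending aorta of Apoe-/- mice were compared between 4 months and 2 months of high fat diet (HFD). The comparison used 2 of the 8 libraries of the series, with 1235 cells at 4 months (4M) and 2659 cells at 2 months (2M), 3894 of the 6797 cells of the Apoe-/- time course. Members were the genes listed above 0 in both libraries, without pseudogenes: 8496 of 10338 gene identifiers. Genes listed in 1 of the libraries only are described apart.

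Cells carrying GFP were sorted from digested aortas as the smooth muscle fraction, and libraries were made with the 10x Genomics Chromium droplet system. The series held 2 genotypes on 4 diets each: the diet labelled ND and HFD for 1, 2 or 4 months. Every library used here came from Apoe-/- mice, so lack of apolipoprotein E is shared by both sides. The ND and 1-month (1M) libraries of the same genotype are given beside the results. The labels give neither the mice's ages nor the number of animals behind a library, and they do not say what drives the GFP. Time on the diet and age cannot be told apart here. Apoe is not among the listed genes, so the genotype was not checked from it.

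Vascular smooth muscle cells are contractile cells of the arterial wall, held in that state by transcription factors that drive actin, myosin and calponin genes. In Apoe-/- mice, whose blood cholesterol is high and whose arteries form plaques on a fatty diet, such cells are known to lose contractile proteins and to take up programmes of matrix production, and in advanced lesions some express genes of cartilage and bone. Cartilage cells are known for type II collagen, aggrecan and cartilage oligomeric matrix protein under the transcription factor Sox9. Bone-forming cells are known for osteopontin, bone sialoprotein and alkaline phosphatase.

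There was 1 library per time, so no test was possible and no value below has a replicate error. Levels are UMIs (unique molecular identifiers) per 1000000 UMIs of a library (CPM). Differences are of log2(CPM + 1), 4M minus 2M, and understate the change of genes with low levels. The 4M library held 9407669 UMIs and the 2M library 19720109. The median cell had 6966 and 7220 UMIs, and 58 of 1235 cells at 4M lay above 2 times the median, against 32 of 2659 at 2M. Mitochondrial transcripts took 2.74% of UMIs at 4M and 2.14% at 2M, where the second share includes mt-Co3 (1398 CPM), which is listed at 0 at 4M. All 9 smooth muscle markers were listed in both libraries, with a summed level of 26177 CPM at 2M and 18191 at 4M. Of the markers of macrophages (16), lymphocytes (12) and erythroid cells (5), 0 were listed. Endothelial markers were listed for 4 of 13, with 113 CPM at 2M and 164 at 4M. Fibroblast markers were listed for 6 of 14 at 2M (962 CPM) and 9 of 14 at 4M (5581 CPM). Genes listed above 0 were seen in over 5% of cells in both libraries, so markers of a small population could be listed at 0, and a listing at 0 is not read here as a low level. Of the cell barcodes, 6 occurred in both libraries.

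At 4M, 170 of the 8496 genes were at least 2-fold higher (a difference of at least 1), which is 2.00% of them, and 145 were at least 2-fold lower, which is 1.71%. The earlier steps of the time course had fewer genes past this size. Those steps were shorter, and the 4M library had the fewest UMIs of the 4, so the counts are not like for like. From 1M to 2M, 34 of 8691 were higher (0.391%) and 24 lower (0.276%), and from ND to 1M, 5 of 9234 were higher (0.0541%) and 8 lower (0.0866%). The median difference over all 8496 genes was -0.04. Of the 170 higher genes, 158 were listed in all 4 libraries, and in 152 of those the 4M level was the highest of the 4. In 88 of them 4M was at least 2-fold above each of the other 3 libraries. Of the 145 lower genes, 144 were listed in all 4, 4M was the lowest in 141, and it was at least 2-fold below each of the others in 55. These genes were picked for their difference between 4M and 2M, and few genes passed 2-fold between the earlier libraries. An extreme 4M level was thus to be expected and is no separate support. In 14 of the higher genes 2M was at least 2-fold below ND, and in 4 of the lower genes at least 2-fold above it.

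**Figure D1:**
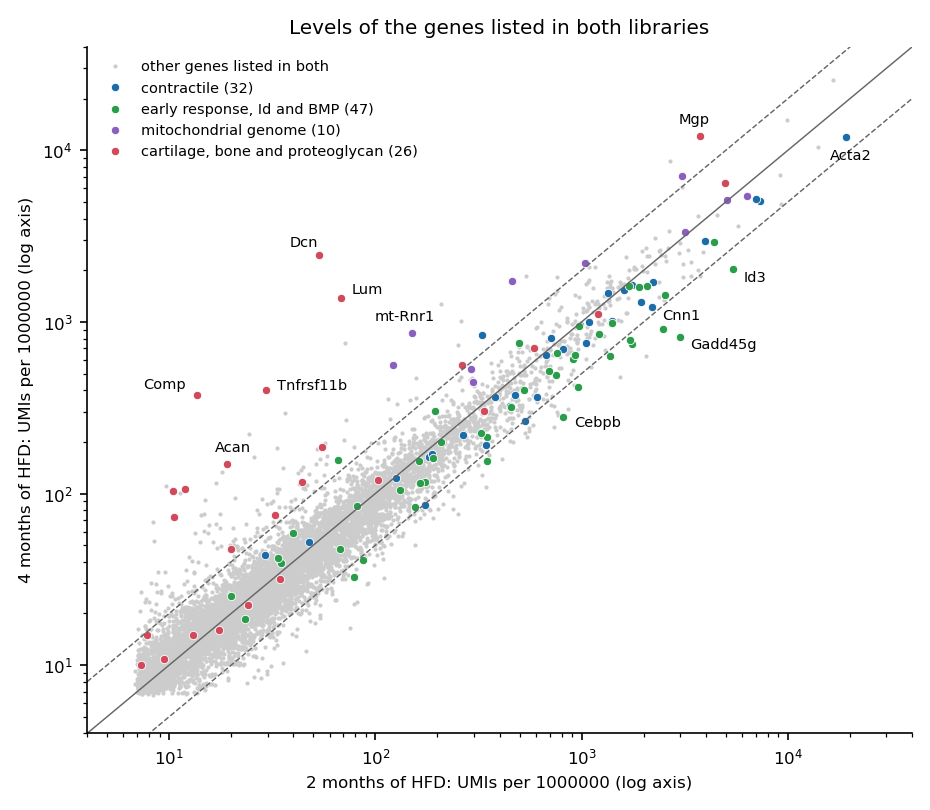
Level of each gene listed in both libraries at 2 months (x axis) and 4 months (y axis) of HFD, in UMIs per 1000000 on log axes, with the line of equal levels (solid) and the 2-fold lines (dashed). Dcn lies farthest above the lines, at 53.0 against 2451 CPM, Gadd45g and Id3 lie below them, and most contractile genes lie between the solid line and the lower dashed one.

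The 4 largest differences were those of Dcn, Comp, Lum and Tnfrsf11b, genes of proteoglycans, cartilage and bone. Dcn (decorin, a small proteoglycan that binds collagen fibrils; chromosome 10, 97479609 to 97518143, plus strand, GRCm38) stood at 53.0 CPM (95% Poisson interval 49.8 to 56.3) at 2M and at 2451 CPM (2420 to 2483) at 4M, 46.3-fold higher. The ND and 1M libraries, at 36.9 and 48.2 CPM, lay near 2M. Lum (lumican, a related proteoglycan) stood at 68.1 CPM at 2M and 1373 at 4M, 20.2-fold higher, and was listed at 0 in ND and 1M. Dcn was therefore low in the 3 earlier libraries and high in the last, while for Lum a low level was measured at 2M only.

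Of the 7 small leucine-rich proteoglycan genes listed in both, 4 were at least 2-fold higher and 0 lower, with a median difference of 1.09. Omd (osteomodulin, a proteoglycan of mineralised tissue) went from 11.9 to 106 CPM and Prelp from 263 to 561 CPM. Bgn (biglycan), the member of highest level, differed by 0.38, from 4970 to 6470 CPM. Fmod (fibromodulin), Chad (chondroadherin, a cartilage matrix protein) and Podn were listed at 4M only.

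Among cartilage genes, 5 of the 11 listed in both were at least 2-fold higher and 0 lower, and 12 more were listed at 4M only. Comp (cartilage oligomeric matrix protein; chromosome 8, 70373558 to 70382066, plus strand) stood at 9.88 CPM in ND, 13.6 at 2M and 376 at 4M, and was listed at 0 in 1M. Acan (aggrecan, the large proteoglycan of cartilage) stood at 16.2, 12.1, 19.1 and 148 CPM from ND to 4M. Snorc, a membrane proteoglycan of cartilage cells, stood at 10.4 CPM at 2M and 104 at 4M. Sox9, the transcription factor of cartilage formation, stood at 35.8, 33.5, 55.1 and 186 CPM. For each of these genes 4M was the highest of the libraries that list it, with Comp and Snorc listed at 0 in 1M. Sox5 (0.85), Sox6 (0.18), Sox8 (-0.11) and Wwp2 (-0.15) differed by less than 1. The median difference of the list was 0.85.

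The genes listed at 4M only were led by the same kind of gene. Col2a1 (type II collagen, the main collagen of cartilage; chromosome 15, 97975602 to 98004695, minus strand) was listed at 0 in ND, 1M and 2M and stood at 2545 CPM (2513 to 2578) at 4M. Cytl1, a secreted protein of cartilage, stood at 1943 CPM and Chad at 993 CPM. Spp1 (osteopontin) stood at 1090 CPM and Ibsp (bone sialoprotein) at 795 CPM, both secreted proteins of mineralised matrix. Exons of Spp1 overlap another gene on the same strand. 1500015O10Rik, a secreted protein gene known from cartilage cells, stood at 747 CPM at 4M and at 6.81 and 6.95 CPM in ND and 1M. The others of the 10 highest were Fmod (146 CPM), Grcc10 (119), Chil1 (111, a secreted chitinase-like protein) and Gdf10 (111, a TGF-beta family ligand). No fold is given against a listing at 0.

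In all, 675 genes were listed at 4M only and 284 at 2M only. From 1M to 2M these counts were 89 and 667, and from ND to 1M 124 and 337. The median gene listed at 4M only was seen in 6.15% of cells, close to the 5.02% of the listed gene seen in the fewest cells of that library. Of the 675, 65 were seen in over 10% of cells, 18 in over 20%, and 232 were also listed at 0 in ND and 1M. Grcc10 was seen in the most cells, 57.1%. It was also listed in ND and 1M, at 9.13 and 8.38 CPM, and its exons overlap another gene on the same strand. Among the 284 genes listed at 2M only, 13 were seen in over 10% of cells. Klf5, a transcription factor of activated smooth muscle, was seen in 12.6% and stood at 19.7 CPM, and Casq1 (calsequestrin, which stores calcium) stood at 27.9 CPM. Dll1, a Notch ligand, stood at 16.9 CPM. mt-Co3, a mitochondrial subunit of cytochrome oxidase, was seen in 99.8% of 2M cells at 1398 CPM, stood at 1183 CPM in ND and was listed at 0 in 1M and 4M, so that its listing at 0 does not show a low level.

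Bone genes were higher in part. Of the 9 genes of bone and mineralisation listed in both, 6 were at least 2-fold higher and 0 lower (median 1.21), and 5 more were listed at 4M only, among them Alpl (alkaline phosphatase, 38.3 CPM) and Phex (16.7 CPM). Tnfrsf11b (osteoprotegerin, a decoy receptor that restrains osteoclasts) stood at 12.6, 17.2, 29.6 and 401 CPM from ND to 4M. Mgp (matrix Gla protein, an inhibitor of calcification) stood at 3982, 3736, 3731 and 12059 CPM, 3.23-fold higher than at 2M. Enpp1 and Ank, which raise the mineralisation inhibitor pyrophosphate, differed by 1.21 and 1.38 and stood at 47.6 and 117 CPM at 4M. Mgp, Enpp1 and Ank, which restrain mineralisation, were thus all at least 2-fold higher. Sost (sclerostin) stood at 1194 and 1115 CPM.

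Other matrix and secreted genes differed too. Fn1 (fibronectin) stood at 504, 398, 540 and 1858 CPM from ND to 4M. Frzb, a secreted Wnt antagonist known from cartilage, stood at 36.3 CPM at 2M and 294 at 4M. Mmp2, a gelatinase, went from 16.9 to 115 CPM. Thbs1 (thrombospondin 1) went from 54.1 to 158 CPM, and Ccn2, a matricellular protein induced by TGF-beta, from 757 to 1515 CPM, below its 2853 CPM in ND. Of 16 matricellular genes, 5 were at least 2-fold higher and 0 lower. Among 11 interstitial collagen genes 10 were above 0, where 45.2% of all genes were, and the median was 0.51. In either direction 0 passed 2-fold, where 2.00% of all genes were higher and 1.71% lower by that size. Col1a1 stood at 694 and 1384 CPM and Col1a2 at 1085 and 2082 CPM. Genes of the elastic fibre had a median of 0.07, with Eln (elastin) at 2362 and 1717 CPM and the microfibril gene Mfap4 at 2495 and 1340 CPM. The latent TGF-beta binding protein Ltbp2, at 42.2 and 131 CPM, was the 1 elastic fibre gene of 16 past 2-fold.

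These genes were not spread evenly over the 4M cells. At 4M, 53 of 1235 cells held more than 5 Col2a1 UMIs, 305 cells held 1, and 783 held 0. The tenth of cells with most UMIs of a gene held 98.5% of all Col2a1 UMIs, 94.6% of Comp, 88.6% of Acan, 85.2% of Tnfrsf11b and 81.7% of Dcn. The median of this share over all genes was 59.0%. Cells were therefore set into ranges by their own transcripts, after these values were seen. The cartilage-gene range holds cells with at least 1% of UMIs in 8 genes (Col2a1, Acan, Chad, Comp, Fmod, Snorc, Cytl1 and 1500015O10Rik). The decorin-lumican range holds other cells with at least 0.1% of UMIs in Dcn and Lum, and the remaining cells lie below both limits. These are ranges and not cell types, and the genes that set them are no finding between them. At 4M, 46 cells lay between 0.5 and 2 times the cartilage limit and 92 around the decorin-lumican limit. At 2M these were 0 and 67.

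At 4M, 85 of 1235 cells lay in the cartilage-gene range, 6.88% (95% Clopper-Pearson interval 5.53 to 8.44), with 10.3% of the library's UMIs and a median of 10815 UMIs per cell. Another 225 cells, 18.2% (16.1 to 20.5), lay in the decorin-lumican range, with a median of 6580 UMIs, and 925 remained, with a median of 6944. At 2M the ranges held 0, 56 and 2603 of 2659 cells. The 56 cells were 2.11% (1.59 to 2.73). ND had 0 and 6 such cells and 1M had 0 and 12. Because 5 of the 8 cartilage genes are listed at 0 in the 2M library and could not count there, the 0 bounds no share, and the share was also taken from Acan, Comp and Snorc alone. At least 0.1% of UMIs in these 3 genes was found in 2 of 2659 cells at 2M and in 105 of 1235 at 4M, 8.50% (7.01 to 10.2). All these intervals cover counting error only.

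The transcripts that set the ranges occurred in the same cells. All 53 cells with more than 5 Col2a1 UMIs also had more than 5 Dcn UMIs, 19.2% of the 276 Dcn cells, and 50 of them had more than 5 Cytl1 UMIs. Of the 127 Spp1 cells, 116 were also Dcn cells. Ly6a (Sca-1, a surface protein of stem and progenitor cells) was listed at 4M only, at 81.5 CPM. Of 36 cells with more than 5 Ly6a UMIs, 34 were Dcn cells and 0 were Col2a1 cells. C3, a complement protein, was also listed at 4M only (96.7 CPM), and 35 of its 45 cells were Dcn cells. In CPM, Ly6a stood at 408 in the decorin-lumican range, 45.4 in the cartilage-gene range and 4.16 in the remaining cells. Decorin cells at 4M thus held cells with more than 5 Col2a1 UMIs and cells with more than 5 Ly6a UMIs. Col2a1 cells were 53 of all 1235, so few were to be expected among 36 cells. With Ly6a also higher in the cartilage-gene range than in the remaining cells, the 0 does not show separate sets of cells.

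Genes that did not set the ranges also differed between them. Sox9 stood at 914 CPM (854 to 976) in the cartilage-gene range, 315 in the decorin-lumican range and 49.3 in the remaining cells of 4M, against 53.5 in the remaining cells of 2M. Ibsp stood at 7526, 45.2 and 15.6 CPM in the 3 ranges of 4M, and Spp1 at 7082, 1435 and 140 CPM. Col1a2 stood at 10205, 2070 and 916 CPM. Cst3 (cystatin C, a secreted protease inhibitor, singled out after its values were seen) stood at 35747, 12726 and 3672 CPM, and at 2682 CPM in the remaining cells of 2M. Mgp had another order, with 23650 CPM in the decorin-lumican range, 11727 in the cartilage-gene range and 9178 in the remaining cells, against 3626 in the remaining cells of 2M. The Mgp difference between times was thus present in the remaining cells too, while that of Sox9 was not.

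Low counts of the cartilage genes were also found outside the cartilage-gene range. A Col2a1 UMI was seen in 77.6% of the cells of that range and in 33.0% of the remaining cells of 4M, with median depths of 10815 and 6944 UMIs. After thinning every cell to 2900 UMIs, 19.5% of all 4M cells had a Col2a1 UMI, against 36.6% before. The level in the remaining cells was 0.234% of that in the cartilage-gene range for Col2a1, 0.244% for Cytl1, 0.355% for Chad, 0.207% for Ibsp and 0.472% for Fmod. For Acan, Comp and Snorc, which are listed at 2M too, it was 3.09%, 2.11% and 1.40%. The part of free RNA in these counts was not tested, and no expression is read from them. For Dcn that percentage was 0.860, and a Dcn UMI was seen in 37.6% of the remaining cells at 4M and 4.99% at 2M.

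Without the cells of both ranges, the comparison of 4M with 2M kept part of these differences. In the remaining cells 135 genes were at least 2-fold higher (1.59%) and 205 lower (2.41%). Of the 170 genes higher over all cells, 101 were also at least 2-fold higher in the remaining cells and 12 were below 0 there. Sox9 (-0.12), Thbs1 (-0.03) and Ptgs2 (-0.12), the inducible cyclooxygenase that stood at 44.6 and 142 CPM over all cells, were among the 12. The median of the interstitial collagens, which did not set the ranges, was -0.26 in the remaining cells, against 0.51 over all. Omd kept a difference of 1.67, Prelp 0.72 and Mgp 1.34. Dcn (2.87), Comp (1.97) and Lum (1.66) are among the 101, but they set the ranges and are no finding there. The part of free RNA in the differences kept in the remaining cells was not tested.

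Contractile genes were lower over all cells, mostly by less than 2-fold. Of 32 genes listed in both, 27 were below 0, 2 were at least 2-fold lower and 1 was at least 2-fold higher, with a median difference of -0.32. Acta2 (smooth muscle actin; chromosome 19, 34241090 to 34255590, minus strand) stood at 18216, 20761, 19227 and 11931 CPM from ND to 4M, 1.61-fold lower than at 2M. Cnn1 (calponin) stood at 2183 CPM at 2M and 1221 at 4M, Actg2 (gamma actin of smooth muscle) at 530 and 263 CPM, and Des (desmin) at 173 and 85.8 CPM. Myh11, the smooth muscle myosin heavy chain, differed little, at 1759 and 1639 CPM, and Mylk, its light chain kinase, stood at 1083 and 1001 CPM. Tagln (transgelin) went the other way, from 330 CPM at 2M to 835 at 4M. Its 2M level was the lowest of the 4 libraries, below the 747 CPM of ND and the 983 CPM of 1M.

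The contractile level at 4M was lowest in the cells of both matrix ranges. In the remaining cells contractile genes differed from 2M in both directions. Acta2 stood at 572 CPM in the cartilage-gene range (526 to 622), 4056 in the decorin-lumican range and 15557 in the remaining cells of 4M, against 19482 in the remaining cells of 2M. Myh11 stood at 41.2, 469 and 2164 CPM in the 3 ranges of 4M and at 1784 CPM in the remaining cells of 2M. The remaining cells thus held less Acta2 and more Myh11 at 4M than at 2M. The median difference of the contractile list in the remaining cells was -0.05, with 14 of the 32 genes above 0. The median remaining cell held 5.88% of UMIs in the 32 genes at 4M, against 6.21% at 2M. Cells with under 2% of UMIs in the 32 contractile genes numbered 16 of 2659 at 2M, which is 0.602%, and 240 of 1235 at 4M, which is 19.4%. Of those 240 cells, 84 lay in the cartilage-gene range, 135 in the decorin-lumican range and 21 among the remaining cells. All but 1 of the cartilage-gene cells were thus below that limit. Of the 15 contractile regulators listed in both, 0 passed 2-fold, where 2.00% of all genes were higher and 1.71% lower by that size. Of the 15, 11 were below 0, with a median of -0.36. In the remaining cells their median was -0.27 and 3 were above 0. Myocd (myocardin, the coactivator of contractile genes) stood at 36.6 and 28.7 CPM and Srf at 43.6 and 51.1 CPM. Klf4, which represses contractile genes, stood at 860 and 669 CPM.

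**Figure D2:**
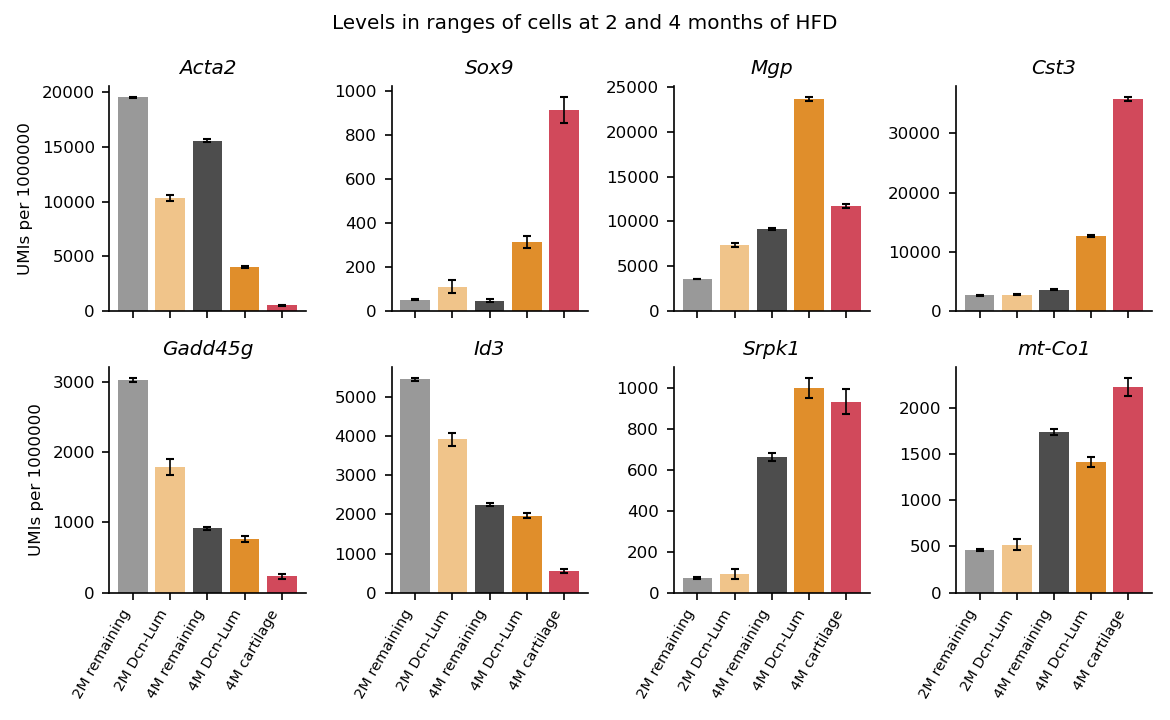
Level of 8 genes in the remaining and decorin-lumican cells of 2 months and the remaining, decorin-lumican and cartilage-gene cells of 4 months of HFD, in UMIs per 1000000 on linear axes from 0, with exact Poisson 95% intervals (counting error only). Acta2 is lowest in the cartilage-gene cells at 572 CPM and Sox9 highest there at 914 CPM, Gadd45g and Id3 are lower in every range of 4 months than in either range of 2 months, and Srpk1 and mt-Co1 are higher in every range of 4 months.

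The decorin-lumican range existed at both times and differed between them. Its Acta2 level was 10303 CPM in the 56 cells of 2M and 4056 CPM in the 225 cells of 4M. Mgp stood at 7399 and 23650 CPM, Fn1 at 1116 and 3525 CPM, and Cst3 at 2811 and 12726 CPM. C4b, a complement protein, stood at 47.4 and 371 CPM and Sox9 at 111 and 315 CPM. Several inflammatory genes had the opposite order: Lcn2 (lipocalin 2, an acute-phase protein) stood at 2519 CPM at 2M and 343 at 4M, Cxcl1 (a neutrophil chemokine) at 2123 and 633 CPM, Timp1 (a metalloprotease inhibitor) at 1768 and 491 CPM, and Vcam1 (a leukocyte adhesion molecule) at 2729 and 1543 CPM. Cells that passed the same limit thus held more Acta2 and more of these inflammatory transcripts at 2M, and more of Mgp, Fn1 and Cst3 at 4M. The limit is a lower bound, and the cells were not matched for how far above it they lay. Their median depth was 9392 UMIs at 2M and 6580 at 4M. Over all cells, Lcn2 (141 and 131 CPM), Cxcl1 (297 and 196 CPM) and Vcam1 (433 and 492 CPM) differed by less than 2-fold. In the remaining cells Lcn2, Cxcl1 and Tnfaip6 were lower at 4M, with differences of -2.10, -2.57 and -1.73.

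Complement genes were higher in part. Of 8 listed in both, 3 were at least 2-fold higher and 0 lower. C4b stood at 11.3 CPM at 2M and 101 at 4M and was listed at 0 in ND and 1M, and C1s1 stood at 22.5 and 48.4 CPM. Clu (clusterin) stood at 933, 1188, 2072 and 2415 CPM from ND to 4M, with a larger step before 2M than after it. Of the marker genes of modulated smooth muscle and mesenchymal stem cells, 7 of 15 were at least 2-fold higher and 1 lower (median 0.72). Lgals3 (galectin 3) stood at 157 and 360 CPM over all cells and differed by 0.02 in the remaining cells.

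A further group of genes was higher at 4M over all cells. Srpk1, a kinase of splicing factors, stood at 59.0, 54.7, 71.6 and 752 CPM from ND to 4M. Its 4M level was 933 CPM in the cartilage-gene range, 1001 in the decorin-lumican range and 663 in the remaining cells. In the remaining cells of 2M it was 71.0 CPM. Rpl23a, a ribosomal protein, stood at 32.9, 33.0, 24.3 and 223 CPM and was seen in 16.2% of 2M and 74.3% of 4M cells. Its exons overlap other annotated genes, so its reads are uncertain. Serf2 (singled out after its values were seen) stood at 261 and 1015 CPM. Atp5g2 (an ATP synthase subunit) went from 14.9 to 91.2 CPM, while its whole list, the respiratory chain, had a median of -0.08 with 3 of 62 genes at least 2-fold higher. Lars2, the mitochondrial leucyl-tRNA synthetase, went from 18.0 to 134 CPM and Vaultrc5, a vault RNA, from 9.69 to 111 CPM. Snhg9, a small nucleolar RNA host gene, went from 8.37 to 67.9 CPM, and it lies antisense to another gene, from which its reads may not be separable. In the remaining cells Rpl23a, Lars2, Vaultrc5 and Snhg9 differed by 3.10, 3.05, 3.40 and 2.63.

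Transcripts of the mitochondrial genome were higher in part, and their share of UMIs differed between ranges of cells. Of 10 listed in both, 5 were at least 2-fold higher and 0 lower (median 0.98, and 1.08 in the remaining cells). mt-Rnr1 (ribosomal RNA of the small subunit) stood at 315, 309, 151 and 858 CPM, mt-Nd3 (a subunit of complex I) at 281, 286, 122 and 563 CPM, and mt-Co1 (cytochrome oxidase subunit 1) at 511, 850, 460 and 1725 CPM from ND to 4M. For mt-Rnr1 and mt-Nd3 the 2M library was the lowest of the 4. mt-Cytb, mt-Nd1 and mt-Nd4 differed by -0.22, 0.01 and 0.07, so transcripts of the same genome did not differ by the same amount. The median cell held 1.87% of UMIs in the 10 genes at 2M and 2.53% at 4M. Within 4M this median was 2.73% in the remaining cells, 1.86% in the decorin-lumican range and 1.66% in the cartilage-gene range. At 2M it was 1.88% in the remaining cells and 1.52% in the decorin-lumican range, so both were higher at 4M. The cartilage-gene range held 0 cells at 2M and has no 2M value to be set against. Of the 101 genes that were higher over all cells and in the remaining cells, 28 were not protein coding, 27.7%, against 2.65% of all genes compared. Rn7sk, a small nuclear RNA that regulates transcription elongation (singled out after its values were seen), stood at 210, 497, 209 and 1277 CPM, with 1664 CPM in the remaining cells of 4M, 401 in the decorin-lumican range and 121 in the cartilage-gene range, the last below 2M. The part of RNA quality in these values was not tested.

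**Figure D3:**
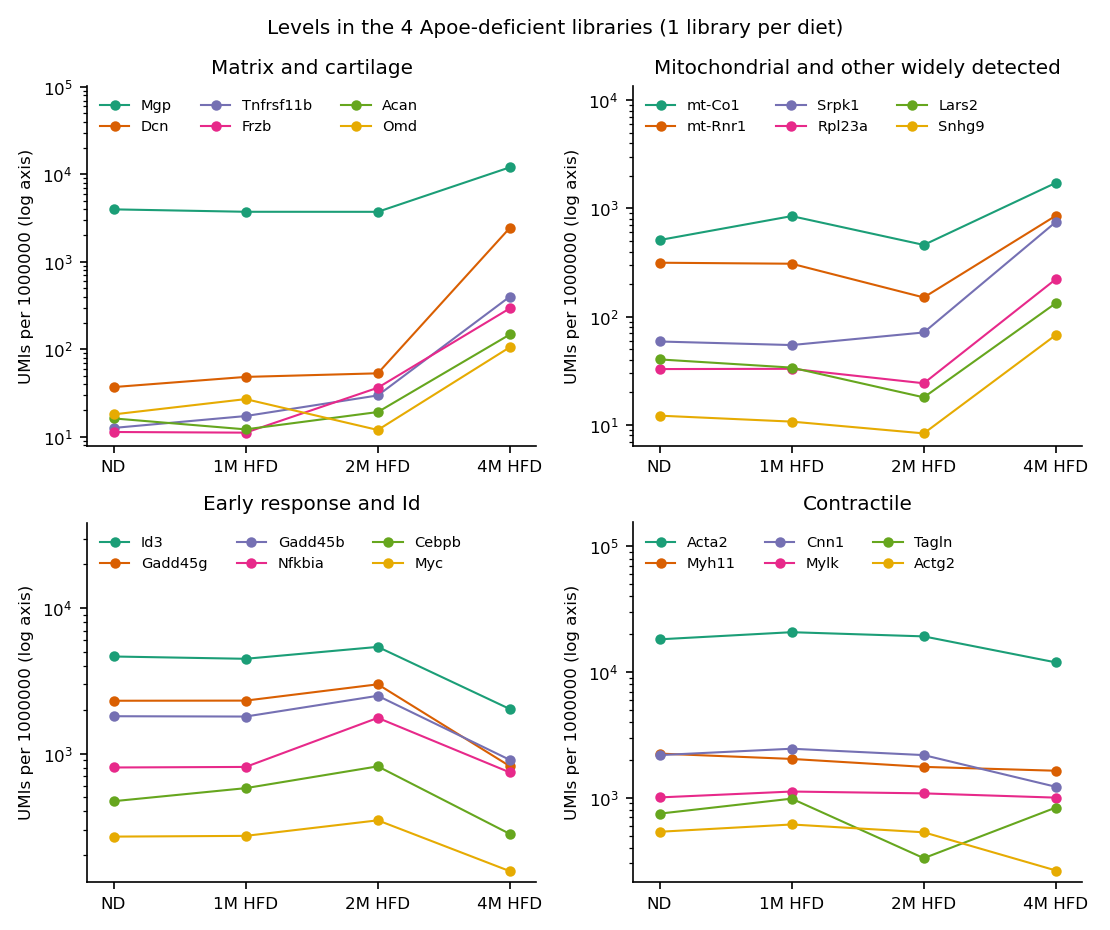
Levels of 24 genes in the 4 Apoe-deficient libraries (x axis, ND to 4 months of HFD), in UMIs per 1000000 on log axes, in 4 panels by group. Matrix and cartilage genes are highest at 4M, the 5 early response genes and Id3 are lowest there after their highest level at 2M, and Tagln is lowest at 2M (330 CPM).

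Early response genes were lower at 4M. These genes are induced within minutes by growth factors and stress, and enzymatic digestion of tissue is known to induce them too. Of 32 genes listed in both, 27 were below 0, 7 were at least 2-fold lower and 1 was at least 2-fold higher, with a median of -0.52 over all cells and -0.46 in the remaining cells. Gadd45g (a stress-induced regulator of kinase signalling; chromosome 13, 51846678 to 51848468, plus strand) stood at 2306, 2311, 2991 and 818 CPM from ND to 4M, 3.66-fold lower than at 2M. Gadd45b stood at 1804, 1795, 2494 and 903 CPM, and Cebpb, a transcription factor of inflammation, at 470, 578, 816 and 280 CPM. Nfkbia (the inhibitor of NF-kappaB) stood at 802, 809, 1758 and 741 CPM, and Myc at 268, 272, 347 and 155 CPM. In each of these 5 genes 2M was the highest of the 4 libraries and 4M the lowest.

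Not every early response gene was lower. Jun (969 and 946 CPM), Egr1 (1699 and 1615 CPM) and Zfp36 (209 and 201 CPM) differed by less than 0.1. Fos stood at 4401 and 2912 CPM. The heat shock gene Hspa1b was higher, at 66.0 and 156 CPM, and Hspa1a stood at 496 and 752 CPM, while Hspa8 and Dnajb1, also of the heat shock response, were at -0.82 and -0.70. The 32 genes took 3.18% of the median cell's UMIs at 2M and 1.97% at 4M. In the remaining cells these medians were 3.19% and 2.04%, and in the decorin-lumican range 2.76% and 2.02%. The cartilage-gene range of 4M stood at 0.797% and has no 2M value. The lower level was thus found in both ranges that held cells at 2M.

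The promoters of the 3 early response genes with the lowest differences are shown because all 3 were lower and each holds the letters TATAAA, the core of a TATA box, in capitals. Sequences are RefSeq promoters of GRCm38.p6, from 100 bases before to 50 bases after the annotated start, 5′ to 3′ on the gene's strand, at chr13:51846575-51846724 (Gadd45g), chr10:80929991-80930140 (Gadd45b) and chr2:167688815-167688964 (Cebpb).
Gadd45g: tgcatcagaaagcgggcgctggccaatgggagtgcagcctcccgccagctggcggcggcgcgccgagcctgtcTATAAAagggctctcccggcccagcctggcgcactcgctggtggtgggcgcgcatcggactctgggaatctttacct
Gadd45b: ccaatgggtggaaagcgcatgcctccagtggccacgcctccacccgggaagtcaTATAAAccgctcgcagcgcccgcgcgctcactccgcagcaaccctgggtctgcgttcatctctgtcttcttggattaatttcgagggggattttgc
Cebpb: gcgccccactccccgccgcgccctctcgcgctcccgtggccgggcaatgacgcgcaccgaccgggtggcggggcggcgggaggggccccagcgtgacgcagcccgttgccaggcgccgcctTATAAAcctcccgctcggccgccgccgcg
The letters begin 27 bases before the start in Gadd45g and 46 before it in Gadd45b, and lie after the start in Cebpb. Within 250 bases before to 50 after the start, on either strand, TATAAA was found in 6 of the 24 list members with a promoter in the table (Fos, Junb, Nfkbia, Cebpb, Gadd45b and Gadd45g). The share over all 27025 promoters of that length was 14.2%, and a match describes these letters only.

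Id genes, which encode inhibitors of DNA binding induced by bone morphogenetic proteins (BMPs), were lower as well. Id3 stood at 4646, 4480, 5408 and 2020 CPM from ND to 4M, Id1 at 825, 900, 961 and 416 CPM, and Id2 at 1870, 1632, 1718 and 782 CPM. Smad1, which carries the BMP signal, stood at 78.7 and 32.5 CPM at 2M and 4M. The inhibitors Bambi (156 and 83.7 CPM), Smad7 (326 and 224 CPM) and Smad6 (67.4 and 47.7 CPM) were below 0 too. Of 15 genes of this list 4 were at least 2-fold lower and 1, the ligand Bmp2 (32.7 and 74.9 CPM), was higher, with a median of -0.49 and of -0.33 in the remaining cells. Bmp2 differed by 0.05 in the remaining cells and stood at 393 CPM in the cartilage-gene range. Gdf10 and Chrdl1, a BMP antagonist, were listed at 4M only.

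TGF-beta genes differed in both directions: of 25, 3 were at least 2-fold higher, 1 lower, and the median was -0.07. Tgfb2 stood at 280 and 139 CPM, Tgfb1 at 82.0 and 139 CPM, Tgfbr2 at 39.3 and 54.6 CPM, and the target Pmepa1 at 457 and 631 CPM. Ccn2, Thbs1 and Ltbp2, described above, were the 3 higher genes.

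The 15 genes with the lowest differences over the whole table were mostly not matrix genes. Stmn1 (stathmin, which destabilises microtubules) was lowest, at 75.1 CPM (71.3 to 79.0) at 2M and 16.4 (13.9 to 19.2) at 4M, 4.58-fold lower, with 44.7 and 44.4 CPM in ND and 1M. Its exons overlap another gene on the same strand. Ihh (Indian hedgehog, a ligand of bone growth plates) stood at 46.2 and 12.0 CPM, Fabp3 (a fatty acid binding protein) at 111 and 32.2 CPM, and Tubb6 (a tubulin) at 251 and 75.7 CPM. Tnfrsf12a, the receptor of the cytokine TWEAK, stood at 1408, 1382, 2043 and 637 CPM from ND to 4M, and Ifrd1, a transcriptional coregulator induced by stress and growth factors, at 1025, 980, 1537 and 479 CPM. Rnd1 (a small GTPase), Dusp10 (a phosphatase of stress kinases), Abra (an actin-binding protein of muscle) and Ajuba (a scaffold protein of cell junctions) stood at 344, 156, 35.5 and 30.0 CPM at 2M and at 109, 49.96, 10.3 and 9.25 CPM at 4M. Fam107b, Tex30, Zdhhc14 and Trim16 stood between 27.9 and 81.8 CPM at 2M and between 8.40 and 23.4 CPM at 4M. In the remaining cells all 15 had differences of -1.33 or below. Of the 145 lower genes, 117 were also at least 2-fold lower in the remaining cells.

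**Figure D4:**
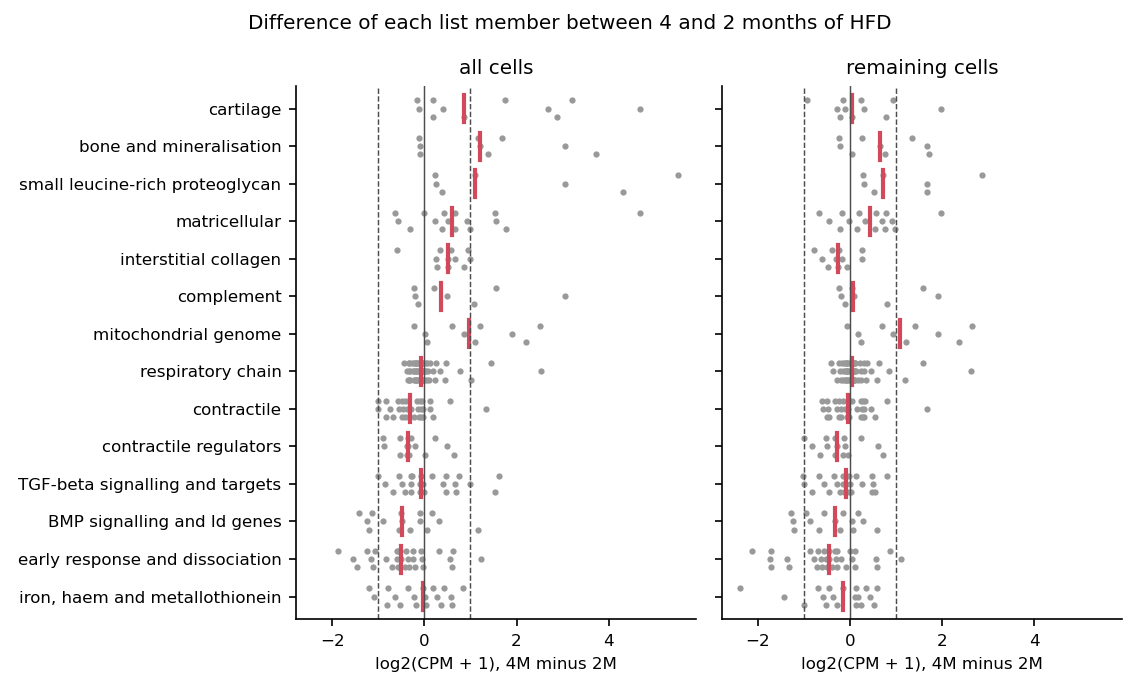
Difference of each list member listed in both libraries (points) and the list's median (bars), 4 months minus 2 months of HFD in log2(CPM + 1), over all cells (left) and over the remaining cells (right), with dashed lines at a 2-fold difference. The median of interstitial collagens lies at 0.51 over all cells and at -0.26 in the remaining cells, while lists with genes that set the ranges, such as the cartilage list, are not to be compared between the panels. The medians of early response genes (-0.52 and -0.46) and of the mitochondrial genome (0.98 and 1.08) stay on their side.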

How the data were processed

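Cells of GFP-positive aortic smooth muscle from 2 Apoe-/- libraries were compared, 1 per time. The values deposited by the authors are log2 values per cell, TMM-scaled per the labels. Per the submitters' processing notes the build was GRCm38 and the tools STAR, UMI-tools, Subread 1.6.0 and featureCounts. The annotation release and the use of strand are not given in the sources used here. Scaling each cell back gave whole UMIs for 100% of 19010923 values (tolerance 0.01). UMIs were summed per library and given as CPM. Intervals (95%) are exact Poisson for levels and Clopper-Pearson for cell shares, and cover counting error only. Total UMIs were 19720109 (2M) and 9407669 (4M), and no cell had under 2930 UMIs, so none was removed. No doublet caller was run. Symbols and 1-based coordinates are from GENCODE vM21 (10333 of 10338 identifiers matched); 373 pseudogenes were left out.

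Differences are of log2(CPM + 1), counted at 1 or more. Named are the 15 highest and 15 lowest genes with at least 100 UMIs in both libraries together, the 10 of highest level listed at 1 time only, and from each list the 4 members of largest difference and the 1 of highest level. Other members were named for their known roles after their values were seen. Members and lists were chosen with earlier results of these data known. Python 3.11.15, numpy 2.4.6, scipy 1.17.1 and pandas 2.3.3 were used. Alternatives changed the scale, the table, the pseudocount, the filter, the cells and the size. Those on the remaining cells and on a total over protein-coding genes of the nuclear genome listed in both libraries were chosen after seeing the data.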

Additional observations from a re-analysis of the deposited data

How the results depend on the processing

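With a pseudocount of 10, 106 genes were higher and 77 lower. At a size of 1.5-fold these counts were 522 and 797, and at 4-fold 29 and 1. Without the cells of at least 1% cartilage UMIs the interstitial collagen median was 0.082. In the remaining cells the contractile median was -0.051, and the medians of interstitial collagens (-0.26), collagen processing (-0.13) and respiratory chain (0.051) were on the other side of 0 from their values over all cells; the last was 0.0076 with the total over coding genes listed in both libraries. The 30 named genes listed in both kept their sign in all 390 values over 13 settings, and 4 values were below 1 in size, 3 of them in the remaining cells. These genes were picked for the largest differences in the same counts that each setting reuses. A kept sign was thus to be expected and is no separate support. Of 403 list medians, 22 had the other sign. In the tables per diet only Tgfbr2 had other UMI counts. No paired analysis was possible because each time had 1 library, and leaving out a replicate was not possible for the same reason. Depth sets no bound for genes listed at 0, since such a listing need not be a count of 0 UMIs.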

Other observations

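Genes of iron and haem differed in both directions between 2 and 4 months. Hmox1 (haem oxygenase 1, which breaks down haem) stood at 362, 265, 558 and 241 CPM from ND to 4M, and at 531 and 101 CPM in the remaining cells of 2M and 4M. Of the ferritin chains, Ftl1 stood at 914 and 429 CPM and Fth1 at 9959 and 15032 CPM. Of 19 genes of this list, 2 were at least 2-fold lower and 0 higher, where 1.71% of all genes were lower and 2.00% higher. Cp (ceruloplasmin, a copper-binding ferroxidase) and Gpx3 were listed at 4M only, at 64.8 and 64.4 CPM.

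In the IGF list, Igfbp7 stood at 9247 and 4854 CPM, Igfbp2 at 154 and 76.3 CPM, and Igf2r, which clears IGF2, at 33.9 and 84.0 CPM. Of the stress genes of the unfolded protein response, 1 of 22 was at least 2-fold lower: Dnajb9, at 533 and 225 CPM. Atf4, a transcription factor of that response, stood at 717 and 371 CPM. Lipid genes with a difference of at least 1 were Fabp4 (57.5 and 148 CPM), Lrp1 (117 and 271 CPM), Lpl (39.1 and 79.9 CPM) and, lower at 4M, Fabp3. Sqle, an enzyme of cholesterol synthesis, stood at 33.3 and 15.1 CPM, and 0 of 20 genes of that pathway were at least 2-fold higher. Rgs4, a brake on G protein signalling of vasoactive receptors, stood at 237 and 96.3 CPM, and Cav3, a caveolin of muscle, at 61.6 and 26.9 CPM. Of 17 glycolysis genes 1 was above 0, where 45.2% of all 8496 genes were, with a median of -0.11 against -0.04 over all genes, and 0 passed 2-fold. In the remaining cells 7 of the 17 were above 0 and the median was -0.02. Of 19 interferon and antigen presentation genes 0 passed 2-fold, and 6 more were listed at 4M only, among them Ifit3 and Iigp1. Over all genes, 2.00% were higher and 1.71% lower by that size. Counts of 0 or 1 in these lists are near those shares and are no result about them.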
